A study of Mus musculus with 15 samples.

Results

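The core of the circadian clock was followed here through 8 genes measured in the mouse cecum, which were found in the expression table by their symbols Arntl, Clock, Npas2, Per1, Per2, Per3, Cry1 and Cry2. All 8 were among the 45808 rows of the table, and all 8 were among the 11971 genes that passed the filter on low values. The samples were ceca of wild-type C57BL/6 male mice aged 20 weeks by the labels, emptied of their content and frozen. The AIMD group, for antibiotic-induced microbiome depletion, held 7 mice gavaged for 30 days with ampicillin, vancomycin, metronidazole, neomycin and amphotericin B, and the vehicle group held 8 mice gavaged with water. The comparison asked how depletion of the gut microbes changed the cecal transcriptome, and every mouse contributed 1 library of poly-A RNA. All values are FPKM as deposited, fragments scaled to the length of the gene and to a factor of each library, so levels of different genes are compared per length.

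In the circadian clock, Arntl (also called Bmal1) pairs with Clock or its relative Npas2 to switch on genes that carry E-box elements, among them the Per and Cry genes. The Per and Cry proteins then accumulate, enter the nucleus and inhibit the activators that drove them, so that the activator Arntl and the Per genes peak at opposite times of day. In the intestine the clock runs in epithelial cells and smooth muscle and is set by feeding as well as by light.

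The mice were not alike in clock phase. Sets of mice had earlier been chosen by the measured FPKM of clock genes in this table, which divided each treatment into a low set (AIMD replicates 1 to 3 and vehicle replicates 1 to 4), with low Per expression, and a high set (AIMD replicates 4 to 7 and vehicle replicates 5 to 8), with high Per expression. The labels give no time of sacrifice for any mouse, although the study's own model had time of sacrifice as a factor, and differences between the sets cannot be told apart from differences in time of sacrifice. Since these sets were read from the clock genes themselves, values within and between them are given as a description with no test. The comparison of AIMD with vehicle over all 15 mice used the labels alone.

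The reads on genes ranged from 8679640 to 18108536 in AIMD mice and from 4372377 to 14405838 in vehicle mice. Vehicle replicate 8 had the fewest reads and stood apart in the genes of the outer wall: the summed FPKM of 10 smooth muscle markers was 3080 there and 527 to 1401 in the other vehicle mice, and that of 10 enteric neuron and glia markers was 91.3 against 5.83 to 28.7. Results that rest on this mouse are given with and without it. The ceca had the markers of their epithelium, with a summed FPKM of 11 epithelial markers of 7548 to 11498 in AIMD and 6935 to 9033 in vehicle mice, and no marker of any list was at 0 in all mice. In vehicle mice the summed FPKM of 9 fibroblast and endothelial markers was 28.7 to 59.3 in the low set and 67.8 to 107.9 in the high set. In AIMD mice these sums overlapped, at 36.9 to 51.9 and 38.9 to 85.3. The sums of the other marker lists overlapped between the sets in both treatments. The part of tissue make-up in differences between the sets was not tested. In such whole-tissue samples, fewer cells of a type and less RNA per cell cannot be told apart.

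By GENCODE M21 on GRCm38, the activators lie at chr7:113207465-113314126 (Arntl, plus strand), chr5:76209868-76304792 (Clock, minus strand) and chr1:39193731-39363236 (Npas2, plus strand). The Per genes lie at chr11:69095217-69109960 (Per1, plus strand), chr1:91415982-91459324 (Per2, minus strand) and chr4:151003652-151044665 (Per3, minus strand), and the Cry genes at chr10:85131700-85185064 (Cry1) and chr2:92403646-92434043 (Cry2), both on the minus strand. The span of Per3 lies across that of Camta1 on the same strand, and the spans of Clock and Npas2 hold pseudogenes or other annotated genes of the same strand. No 50-base window of the transcripts of the 7 genes other than Cry2 occurred, read in the sense direction, in the transcripts of another gene, and for Cry2 0.0638% did, so little of their sequence was shared with a paralog. The spans of Arntl, Npas2 and Cry2 overlap noncoding genes or pseudogenes of the opposite strand, and whether the counting used strand is not given in the sources used here.

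The promoters of Per1, Per3, Cry1 and Cry2 are shown because these are repressor genes that the Arntl pairs drive and that differed between the sets or between the treatments. RefSeq on GRCm38.p6 gave windows of 250 bases before to 50 bases after a start for 7 of the 8 genes, 11 windows in all, and none for Per2. The 200 bases from 250 to 51 before the start are printed on the strand of the gene, from chr11:69098699-69098898 for Per1 (a start inside the GENCODE span of the gene), chr4:151044716-151044915 for Per3, chr10:85185105-85185304 for Cry1 and chr2:92434120-92434319 for Cry2. The capitals mark the E-box CACGTG, the variant E-prime box CACGTT, which reads AACGTG where it lies on the opposite strand, and the D-box TTANGTAA, where N is any base.
Per1: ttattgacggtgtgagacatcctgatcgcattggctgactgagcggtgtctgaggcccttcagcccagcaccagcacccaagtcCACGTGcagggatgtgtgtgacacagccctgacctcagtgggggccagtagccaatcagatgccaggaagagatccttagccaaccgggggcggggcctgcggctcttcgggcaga
Per3: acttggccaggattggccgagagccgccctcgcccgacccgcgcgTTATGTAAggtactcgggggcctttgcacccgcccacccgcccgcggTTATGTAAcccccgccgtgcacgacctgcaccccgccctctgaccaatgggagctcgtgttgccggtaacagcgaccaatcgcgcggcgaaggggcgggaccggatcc
Cry1: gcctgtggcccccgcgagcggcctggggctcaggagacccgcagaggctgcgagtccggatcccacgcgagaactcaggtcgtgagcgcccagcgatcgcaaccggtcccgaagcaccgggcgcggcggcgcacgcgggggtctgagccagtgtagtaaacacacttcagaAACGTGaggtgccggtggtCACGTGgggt
Cry2: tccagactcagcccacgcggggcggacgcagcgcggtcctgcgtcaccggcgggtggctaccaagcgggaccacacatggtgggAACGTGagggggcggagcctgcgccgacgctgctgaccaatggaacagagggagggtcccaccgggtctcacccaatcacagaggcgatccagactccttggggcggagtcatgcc

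The E-box is the element bound by the Arntl pairs, and it was found 166 bases before the start of Per1 and 60 bases before that of Cry1. The E-prime box was found on the opposite strand 79 bases before the start of Cry1 and 166 bases before that of Cry2. The D-box, the element of Dbp, Tef, Hlf and Nfil3, was found 205 and 158 bases before the start of Per3. Of 32851 RefSeq windows of this length, 7.15% held the E-box, 4.68% the E-prime box and 2.32% the D-box on either strand. The cyclic AMP element TGACGTCA, present in 1.79% of the windows, was found in none of those of the 7 genes. The core AGGTCA of the Ror and Rev-erb element, in 16.3% of windows, was found 32 bases after a start of Arntl, 119 bases before a start of Clock and 137 bases before that of Per1. These are matches of letters and do not show binding.

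Over all mice, Cry1 was higher and Npas2 lower in AIMD than in vehicle mice, and the other 6 genes did not pass the test. Expression was compared by limma on log2(FPKM + 0.5), and a gene was called where its p, adjusted by Benjamini-Hochberg over all 11971 genes tested, was under 0.05. The background was wide: 36.0% of genes were called, 19.4% as higher and 16.6% as lower in AIMD, against 2 of the 8 clock genes. As the 8 genes were selected on their roles with values of this comparison already known, nothing is read from that count. The median log2 fold change was 0.16 over the 8 genes and 0.0066 over all tested genes. The same 2 genes were called by limma voom on recovered reads, and without vehicle replicate 8 Cry2 was called too.

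Cry1 encodes a cryptochrome, the strongest of the repressors of the Arntl pairs. In AIMD mice Cry1 was at 28.8, 20.5 and 19.9 FPKM in the low set and at 14.9, 19.1, 15.8 and 14.6 FPKM in the high set. In vehicle mice it was at 7.58, 8.69, 9.94 and 9.54 FPKM in the low set and at 11.3, 7.53, 8.92 and 10.1 FPKM in the high set. Every AIMD mouse was thus above every vehicle mouse, as was so for 5.27% of all tested genes. The means were 19.1 ± 4.93 FPKM (SD, n = 7) and 9.20 ± 1.29 FPKM (SD, n = 8), a ratio of 2.07. The log2 fold change was 0.99 with a standard error of 0.14 (adjusted p = 6.84e-05 by limma), and the exact permutation test over the 6435 splits of the mice gave p = 0.0001554, the smallest it allows (two-sided). Leaving out any 1 mouse kept the log2 fold change between 0.89 and 1.05. Reads on Cry1 ranged from 133 to 1519 a mouse.

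The excess of Cry1 was present in both sets. Its mean was 23.1 ± 5.01 FPKM in 3 AIMD and 8.94 ± 1.04 FPKM in 4 vehicle mice of the low set, a ratio of 2.58, and 16.1 ± 2.04 and 9.46 ± 1.62 FPKM in the 4 and 4 mice of the high set, a ratio of 1.70. On the log2 scale AIMD mice were higher by 1.31 in the low set (pooled SD 0.22) and by 0.74 in the high set (pooled SD 0.21). The sets differed within the AIMD mice, where the 3 mice of the low set were all above the 4 of the high set and the ratio of the means was 1.43. In vehicle mice the sets overlapped and this ratio was 0.945. Cry1 thus separated the treatments in both sets but the sets in AIMD mice alone, and a difference between the sets in the response to treatment was not tested.

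Npas2, the relative of Clock that can take its place beside Arntl, fell in AIMD mice. It was at 7.17, 3.77 and 6.50 FPKM in the low set and at 4.21, 3.84, 3.30 and 3.55 FPKM in the high set of AIMD mice. In vehicle mice it was at 7.16, 7.38, 7.66 and 8.01 FPKM in the low set and at 4.93, 5.21, 6.18 and 6.82 FPKM in the high set. Of the 7 AIMD mice, 5 were below all vehicle mice, and AIMD replicates 1 and 3 lay within the vehicle range. The means were 4.62 ± 1.55 FPKM (SD, n = 7) and 6.67 ± 1.13 FPKM (SD, n = 8), and the log2 fold change was −0.52 ± 0.16 (standard error; adjusted p = 0.0198 by limma, exact permutation p = 0.0118, two-sided). In the high set the treatments did not overlap, with AIMD at 0.644 of the vehicle mean, and in the low set they overlapped, with AIMD at 0.770 of it. The low-set log2 difference was −0.39, and −0.14 without AIMD replicate 2, so it leaned on that mouse. The call rested on no single mouse, with adjusted p from 0.00577 to 0.0494 by limma when each was left out, but the last value was close to the threshold. Without vehicle replicate 8 the log2 fold change was −0.51 (adjusted p = 0.0257 by limma).

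**Figure D1:**
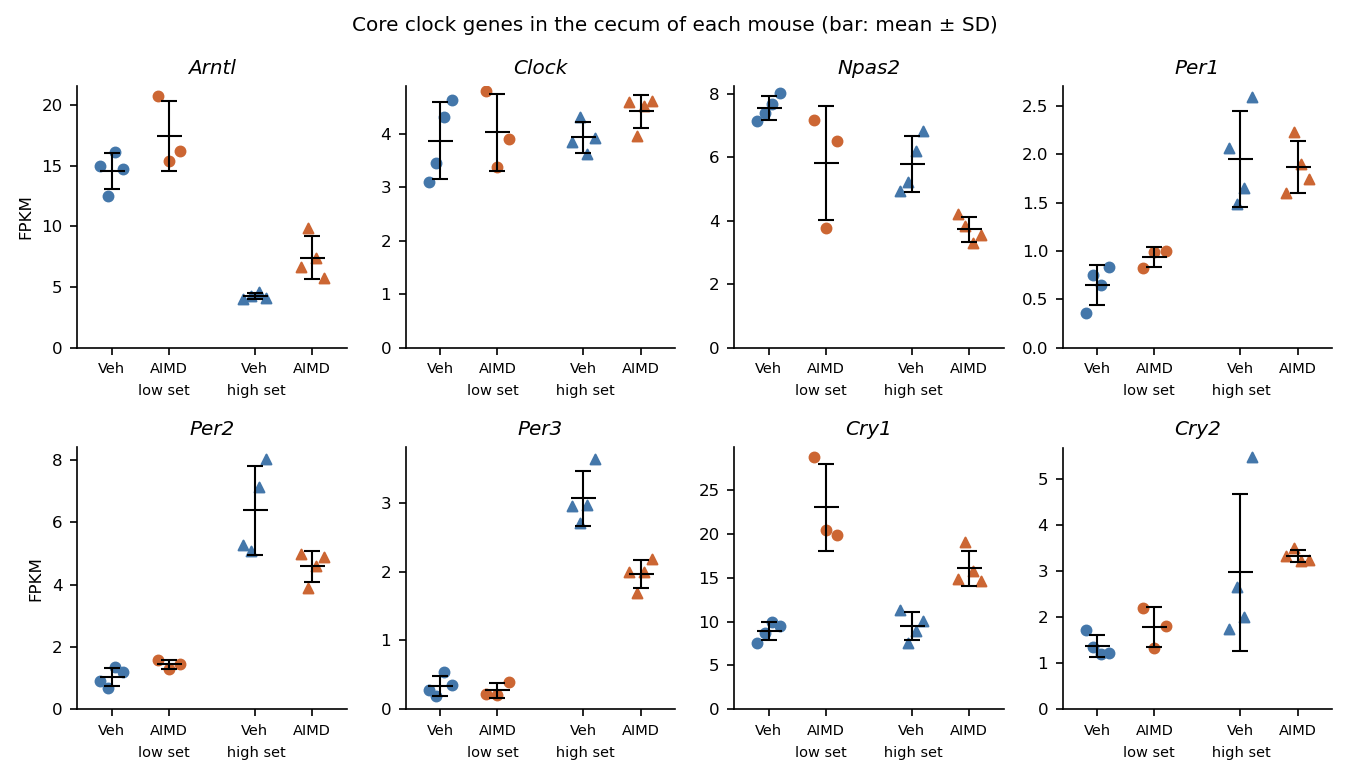
FPKM of the 8 core clock genes in each mouse, 1 panel a gene, with vehicle mice in blue and AIMD mice in orange, circles for the low set and triangles for the high set, and bars for the mean ± SD of each set of 3 or 4 mice. Cry1 is higher in all 7 AIMD mice than in all 8 vehicle mice, Arntl is high in the low set and Per2 and Per3 in the high set, and Clock varies little.

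Arntl, the partner that both activator pairs need, had the widest range in level of the 3 activators. It was at 20.7, 15.4 and 16.2 FPKM in the low set and at 6.62, 9.90, 7.42 and 5.77 FPKM in the high set of AIMD mice. Vehicle mice had 14.9, 12.5, 16.1 and 14.7 FPKM in the low set and 4.00, 4.22, 4.57 and 4.09 FPKM in the high set. The low set was above the high set in every mouse of either treatment, by a ratio of means of 2.35 in AIMD and 3.45 in vehicle mice. The vehicle mice of the high set lay within 1 FPKM of each other, and all 4 AIMD mice of that set were above them, at 7.43 ± 1.78 against 4.22 ± 0.251 FPKM (log2 difference 0.72, pooled SD 0.23). In the low set the treatments overlapped, at 17.5 ± 2.87 and 14.6 ± 1.51 FPKM (log2 difference 0.25, pooled SD 0.18). Over all mice the log2 fold change was 0.40 with a standard error of 0.37 (adjusted p = 0.418 by limma). Reads on Arntl ranged from 52 to 1053 a mouse.

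Clock, the binding partner of Arntl with acetyltransferase activity, was the steadiest of the 8 genes. It ranged from 3.38 to 4.81 FPKM (median 4.52) in AIMD and from 3.09 to 4.63 FPKM (median 3.89) in vehicle mice. The log2 fold change was 0.11 with a 95% interval from −0.10 to 0.32 (adjusted p = 0.430 by limma). The sets overlapped in both treatments, and the treatments overlapped in both sets. Its SD within the groups, on the log2 scale, was 0.17, at percentile 4.92 of all tested genes.

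Per1, an early repressor that is also induced quickly by light and hormones, was at 0.823, 0.992 and 1.00 FPKM in the low set and at 1.60, 2.24, 1.91 and 1.74 FPKM in the high set of AIMD mice. It was at 0.362, 0.749, 0.647 and 0.830 FPKM in the low set and at 2.06, 1.49, 1.65 and 2.60 FPKM in the high set of vehicle mice. The high set was above the low set without overlap in both treatments, with ratios of means of 1.99 in AIMD and 3.02 in vehicle mice. Without vehicle replicate 8 the vehicle ratio was 2.68. Between treatments the ranges overlapped in both sets, and over all mice the log2 fold change was 0.20 with a standard error of 0.25 (adjusted p = 0.558 by limma). Per1 had as few as 15 reads in a mouse of the low set, so its level is least precise there.

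Per2, the period protein that carries Cry proteins into the repressive complex, was low where Arntl was high. AIMD mice had 1.56, 1.28 and 1.46 FPKM in the low set and 4.98, 3.89, 4.59 and 4.89 FPKM in the high set. Vehicle mice had 0.906, 0.670, 1.34 and 1.20 FPKM in the low set and 5.26, 5.09, 7.14 and 8.04 FPKM in the high set. In the high set every AIMD mouse was below every vehicle mouse, though AIMD replicate 4 (4.98 FPKM) lay close to vehicle replicate 6 (5.09 FPKM). The means there were 4.59 ± 0.494 and 6.38 ± 1.44 FPKM (log2 difference −0.42, pooled SD 0.24), or −0.31 without vehicle replicate 8. In the low set the estimate had the other sign, with a log2 difference of 0.36 (pooled SD 0.23) and overlapping ranges. The ratio of the high to the low set was 3.20 in AIMD and 6.21 in vehicle mice, and 5.68 without vehicle replicate 8. Over all mice the mean FPKM was lower in AIMD (3.24 against 3.71) while the log2 fold change was 0.07 with a standard error of 0.46 (adjusted p = 0.918 by limma), so no direction can be given.

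Per3, the period protein that is not needed for rhythm in most tissues, differed more between the sets than any other of the 8 genes in the ratio of means. In AIMD mice it was at 0.220, 0.208 and 0.400 FPKM in the low set and at 2.00, 1.69, 2.00 and 2.19 FPKM in the high set. The vehicle mice had 0.283, 0.192, 0.534 and 0.346 FPKM in the low set and 2.96, 2.71, 2.97 and 3.64 FPKM in the high set. The high set was thus 7.12 times the low set in AIMD mice and 9.06 times in vehicle mice, or 8.50 times without vehicle replicate 8. In the high set the AIMD mice were all below the vehicle mice, at 1.97 ± 0.206 against 3.07 ± 0.398 FPKM (log2 difference −0.53, pooled SD 0.14), and in the low set the treatments overlapped. Over all mice the log2 fold change was −0.20 with a standard error of 0.47 (adjusted p = 0.767 by limma). The pseudocount of 0.5 is larger than 6 of the 7 low-set values, so the log2 scale understates these differences.

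Cry2, the weaker cryptochrome, was at 2.19, 1.33 and 1.80 FPKM in the low set and at 3.33, 3.50, 3.22 and 3.24 FPKM in the high set of AIMD mice. It was at 1.72, 1.35, 1.20 and 1.22 FPKM in the low set and at 1.75, 2.65, 2.01 and 5.46 FPKM in the high set of vehicle mice. Vehicle replicate 8 was far above all other mice, and the 4 AIMD mice of the high set were above the other 3 vehicle mice of that set. Over all mice the log2 fold change was 0.32 with a standard error of 0.25 (adjusted p = 0.339 by limma). Without vehicle replicate 8 it was 0.50 and just under the threshold (adjusted p = 0.0493 by limma). The same mouse had the highest muscle and neuron marker sums, and the part of these in its Cry2 level was not tested.

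Seen across the 8 genes, the treatments did not overlap for 5 in the high set, where Arntl and Cry1 were higher and Npas2, Per2 and Per3 lower in AIMD mice, against 25.4% of all tested genes (14.5% higher and 10.9% lower). Without vehicle replicate 8 Cry2 was a further gene, and the background was 38.3%. In the low set the treatments did not overlap for Cry1 alone, against 29.7% of all tested genes (16.1% higher and 13.6% lower). The ranges are those of 3 or 4 mice, and whether the treatment effect differed between the sets was not tested. As the sets were drawn on clock genes, which narrows the spread of such genes within a set, nothing is read from these counts. For Arntl, Per2 and Per3 the AIMD mice of the high set lay between the vehicle mice of the low set and those of the high set. Npas2 did not share this position, since in the high set AIMD mice were below the vehicle mice of both sets, and Cry1 lay above the vehicle mice of both sets.

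**Figure D2:**
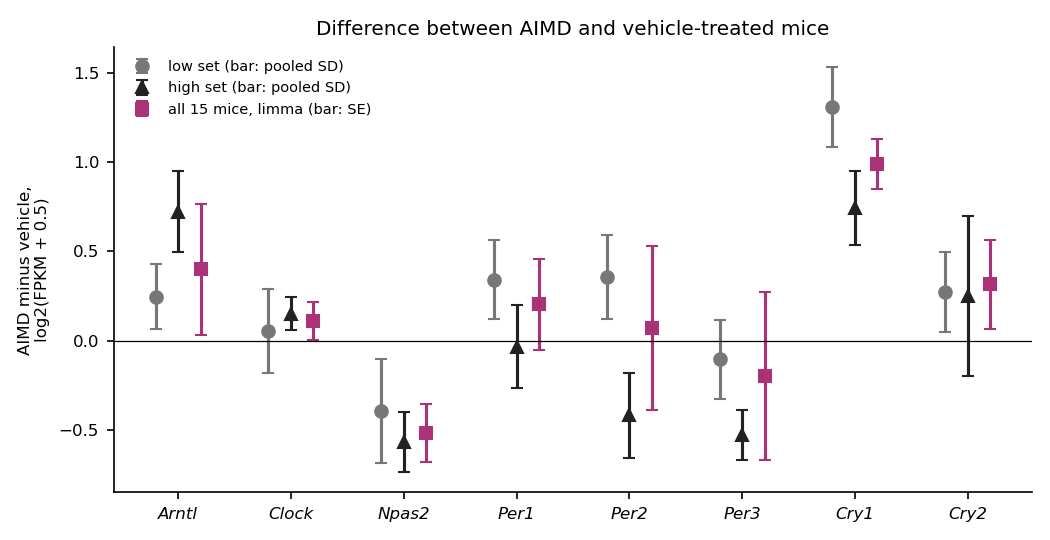
Difference between AIMD and vehicle mice in mean log2(FPKM + 0.5) for each core clock gene, in the low set (grey circles, 3 against 4 mice) and the high set (black triangles, 4 against 4 mice) with bars of the pooled SD, and as the limma estimate over all 15 mice (purple squares) with bars of the standard error. Cry1 is above 0 and Npas2 below 0 in all 3 estimates, and Per2 is above 0 in the low set and below 0 in the high set.

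In each treatment the low and high sets did not overlap for 6 of the 8 genes, against a background of 14.9% in AIMD and 14.0% in vehicle mice, which is only a description because the sets were drawn on such genes. Arntl was lower and Per1, Per2, Per3 and Cry2 higher in the high set in both treatments. Cry1 completed the count in AIMD mice, and Npas2 in vehicle mice. The ratio between the sets was nearer to 1 in AIMD than in vehicle mice for Arntl and all 3 Per genes, with and without vehicle replicate 8, a difference that was not tested. For Cry2 the ratios were 1.87 in AIMD and 2.16 in vehicle mice, and the vehicle ratio was 1.56 without vehicle replicate 8, so that their order turned on that mouse.

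**Figure D3:**
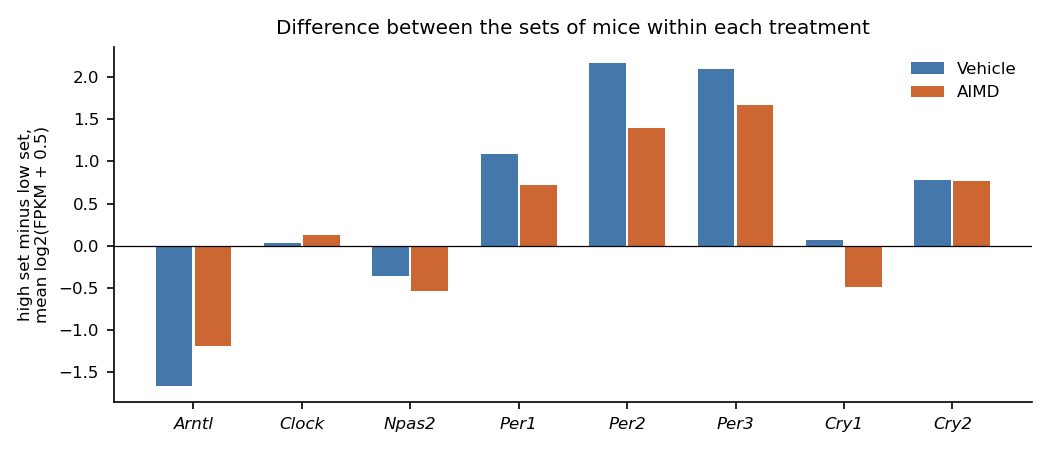
High set minus low set in mean log2(FPKM + 0.5) for each core clock gene, as bars from 0 in vehicle mice (blue) and AIMD mice (orange). Arntl is below 0 and the Per genes and Cry2 above 0 in both treatments, with shorter bars in AIMD mice for Arntl and the Per genes, while Cry1 is below 0 in AIMD mice and near 0 in vehicle mice. Npas2 is below 0 in both treatments, with the longer bar in AIMD mice.

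The spread of Arntl and the Per genes was large over all mice of a treatment and small within a set, as the choice of the sets would make it. The SD of log2 values within treatments was 1.03 for Per3, 1.01 for Per2 and 0.81 for Arntl, at percentiles 99.0, 98.9 and 97.8 of all tested genes, and was also high for Per1 (0.54) and Cry2 (0.53). Within treatments and sets it was 0.18, 0.24 and 0.21 for Per3, Per2 and Arntl, at percentiles 12.2, 31.8 and 20.9, and below the median of all tested genes, 0.28. Cry2 kept an SD of 0.36, at percentile 72.0. For Npas2 and Cry1 the SD within treatments, 0.32 and 0.27, was near the median of all genes, 0.32.

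The order of the levels changed with the set. In vehicle mice of the low set Arntl led with a median of 14.8 FPKM, followed by Cry1 (9.11) and Npas2 (7.52), whose ranges overlapped, and by Clock (3.88). Cry2, Per2, Per1 and Per3 followed with medians from 1.28 down to 0.315 FPKM, each overlapping the next. In the high set of vehicle mice Cry1 led (9.50 FPKM), overlapping Per2 (6.20), and Arntl came after Npas2 at 4.16 FPKM. Cry1 led in both sets of AIMD mice, with medians of 20.5 and 15.3 FPKM, overlapping Arntl (16.2) in the low set and not in the high set (7.02). In the high set of AIMD mice Per2, Clock and Npas2, at 4.74, 4.56 and 3.70 FPKM, each overlapped the next in rank. Cry2, at 3.28 FPKM, came after Npas2 and did not overlap Per3, which followed it. Per3 was the lowest of the 8 in the low set of either treatment, and Per1 the lowest in the high set, with a range that overlapped that of the next gene.

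**Figure D4:**
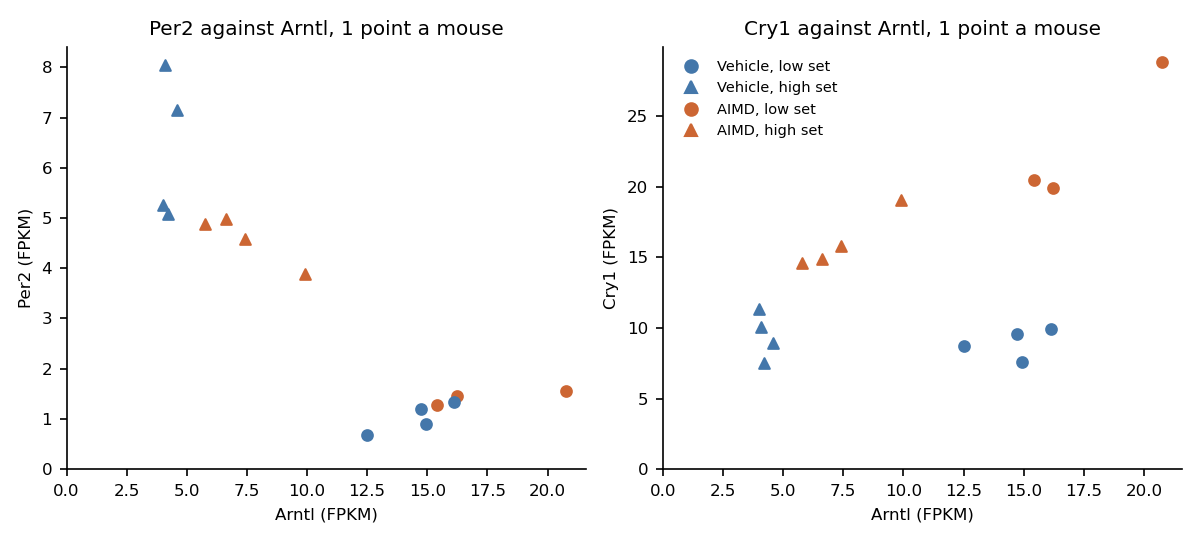
FPKM of Per2 (left) and Cry1 (right) against FPKM of Arntl, 1 point a mouse, vehicle mice in blue and AIMD mice in orange, circles for the low set and triangles for the high set. The mice fall in clusters by set on the left, where high Arntl goes with Per2 below 2 FPKM, and Cry1 separates the treatments at all levels of Arntl on the right.

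Among the genes outside the 8, those most like Arntl over the 15 mice (Pearson r of log2 values, given without p because the mice lie in clusters) were E2f2 (0.95), Trub1 (0.93), Impa2 (0.90), Aig1 (0.90) and Hibadh (0.90). Those most opposite were Nr1d2 (−0.94), Usp2 (−0.92), Slc2a5 (−0.92), Maf (−0.91) and Sulf1 (−0.90). Nr1d2 encodes a Rev-erb receptor that represses Arntl, Usp2 a ubiquitin protease known to act on clock proteins, and Slc2a5 the fructose transporter. E2f2, a cell cycle transcription factor, had mean levels of 6.66 and 3.20 FPKM in the low and high sets of AIMD mice and of 6.65 and 2.20 FPKM in those of vehicle mice. Adjusted p of AIMD against vehicle in these 10 genes ran from 0.194 to 0.904 by limma. As they were picked by likeness to Arntl, itself not called, nothing is read from these values.

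The second loop of the clock, in which Rev-erb receptors repress and Ror receptors activate Arntl, and the output factors of the D-box were read from a list of 12 genes, of which 8 passed the filter. None was called by limma in either direction, where 36.0% of all tested genes were called. Of the 8, 0 had an unadjusted p under 0.05, and limma voom on recovered reads called 0 as well. The median log2 fold change was 0.14, and 0.0066 over all tested genes. The estimates had wide errors: Nr1d1, the other Rev-erb receptor, was at 0.51 (standard error 0.35, adjusted p = 0.268), Tef at 0.78 (0.53, adjusted p = 0.268), Dbp at 0.44 (0.70, adjusted p = 0.650) and Bhlhe40, a repressor of the Arntl pairs, at −0.45 (0.24, adjusted p = 0.153). Of the 12 genes, 9 were higher in the high set and 1 (Nfil3, which competes with Dbp and Tef at the D-box) was lower in it, without overlap, in each treatment, against 14.9% of all tested genes in either direction in AIMD and 14.0% in vehicle mice. This is a description, since the sets were drawn on clock genes, with which these vary. Hlf and Bhlhe41, among the 9, did not pass the filter, while the shares are of tested genes only. Dbp had mean levels of 0.990 and 8.78 FPKM in the low and high sets of AIMD mice and of 0.576 and 8.90 FPKM in those of vehicle mice. Nr1d2 had 6.07 and 21.5 FPKM in AIMD and 6.28 and 31.3 FPKM in vehicle mice.

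The kinases, ubiquitin ligases and cofactors that set the stability and activity of the Per and Cry proteins formed a list of 23 genes, of which 21 were tested, 2 were higher and 5 lower in AIMD mice, against 19.4% higher and 16.6% lower over all tested genes. The share called, 7 of 21, was near the background of 36.0%, so the count says nothing particular to these genes. The median log2 fold change was −0.23. Csnk1e, casein kinase 1 epsilon, which marks Per proteins for breakdown, fell from 3.15 ± 1.58 to 1.40 ± 0.335 FPKM (log2 fold change −0.86, adjusted p = 0.00466 by limma). Hdac3, the deacetylase of the Rev-erb complex, fell by 0.62 on the log2 scale (adjusted p = 0.00654), and Nono, a partner of Per proteins, by 0.52 (adjusted p = 0.00773). Csnk2a1, a catalytic subunit of casein kinase 2, and Timeless, a replication fork protein, also fell, by 0.41 and 0.33 on that scale (adjusted p = 0.0351 and 0.0349). Sirt1, a deacetylase that acts on the Clock complex, and Wdr5, a Per-associated histone methylation factor, rose by 0.46 and 0.52 on the log2 scale (adjusted p = 0.0338 and 0.0205). Csnk1d (0.29, adjusted p = 0.240 by limma) and Btrc (−0.017, adjusted p = 0.926), which act on Per proteins, were not called.

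Glucocorticoids are among the signals that reset peripheral clocks, Per1 being one of their direct targets. Of 10 genes known to respond to them, 9 were tested, 5 rose (Fkbp5, Klf9, Errfi1, Cdkn1a and Ddit4) and 1 fell (Tsc22d3) in AIMD mice, where 19.4% of all tested genes were called as higher and 16.6% as lower. Klf9, a transcription factor with a daily rhythm in many tissues, went from 0.977 ± 0.393 to 2.99 ± 1.55 FPKM (log2 fold change 1.15, adjusted p = 0.00221 by limma), and Ddit4, an inhibitor of mTORC1, from 7.87 ± 1.76 to 13.9 ± 1.69 FPKM (0.80, adjusted p = 0.000167). Fkbp5, a chaperone of the glucocorticoid receptor, rose by 0.49 on the log2 scale (adjusted p = 0.0486), close to the threshold. Tsc22d3, also called Gilz, moved the other way, from 44.8 ± 11.6 to 27.1 ± 7.25 FPKM (−0.71, adjusted p = 0.00671). Per1, on this list too, was among the 3 not called. Of the 9 tested genes, 6 had an estimate above 0 and 3 below 0. The list was chosen with earlier results known, and the part of glucocorticoids in these differences was not tested.

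Among the lists of cell type markers, only that of enteric neurons and glia was called more often than all tested genes. Over all tested genes 36.0% were called, 19.4% as higher and 16.6% as lower in AIMD mice. Of the 7 tested markers of enteric neurons and glia 6 were lower in AIMD mice and none higher (limma; 7 lower and 0 higher at an unadjusted p under 0.05, and 6 lower and 0 higher by limma voom), with summed FPKM of 10 genes at 3.47 to 6.65 in AIMD and 5.83 to 91.3 in vehicle mice. Of the 9 tested smooth muscle markers 2 (Tagln and Synm) were lower and none higher (5 lower and 0 higher at an unadjusted p under 0.05, 3 lower and 0 higher by limma voom), with sums of 218 to 826 and 527 to 3080. Without vehicle replicate 8 the counts were again 6 and 2. Of the epithelial markers 2 (Krt8 and Vil1) were higher and 1 (Krt18) lower, of 11 tested. Of 11 tested immune markers Csf1r was called as higher and 1 other as lower. The sums of 12 immune genes were 12.6 to 40.5 in AIMD and 18.4 to 45.2 in vehicle mice. Without vehicle replicate 8 Itgax was also called as higher, and none was called as lower. Of the 8 tested fibroblast and endothelial markers Col3a1 alone was called, as higher, with sums of 36.9 to 85.3 and 28.7 to 107.9. The part of these shifts in the levels of Cry1 and Npas2 was not tested.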

How the data were processed

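Poly-A libraries of 7 AIMD and 8 vehicle ceca were sequenced by the authors, mapped to GRCm38 with STAR and counted per gene with featureCounts and GENCODE annotation (versions not given in the sources used here), and deposited as FPKM by gene symbol. Of 45808 rows, 27 had a symbol changed into a date and 4 were left out because their symbol occurred more than once. The FPKM of 100.0% of 24279 genes above 0 were whole multiples of 1 read (tolerance 0.01 of a read, 0.05 for the most abundant genes), which gave the reads a mouse.

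Further scaling by median-of-ratios factors, computed on 13594 genes, changed little (all factors 1.01), and 0.5 was added before log2. The deposited values were thus already level between mice by this measure. Genes with at least 0.5 FPKM in at least 7 mice were tested, AIMD against vehicle, with limma 3.58.1 (trend) in R 4.3.3, two-sided, checked on simulated data. Few reads limit the precision of low genes. The labels give no time of sacrifice, so it could not enter the fit as in the study's model. The limma p-values weigh the treatment difference against the spread between mice of a treatment, which includes the difference between the sets. For Arntl and the Per genes this spread was larger than that within the sets. Exact permutation tests, ranges and figures were made in Python 3.11.15 (scipy 1.17.1, pandas 2.3.3, numpy 2.4.6, matplotlib 3.10.9). Pooled correlations between the 8 genes are not given, because the mice lie in clusters.

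Some members of the lists are not reported here, and the counts and sums include them. Named are the 8 genes, members of the lists, and the 5 genes with the highest and the 5 with the lowest correlation with Arntl, other than the 8 and predicted genes. The genes, the lists and the sets of mice were chosen with earlier results of these data known. Alternatives were other pseudocounts, scalings and filters, a replicate block, the set as a factor, medians, a threshold of 0.01, leaving out each mouse and, chosen after seeing the data, limma voom on recovered reads.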

Additional observations from a re-analysis of the deposited data

Results flagged for a closer look

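Each of the 8 genes was checked in both treatments for a mouse far from the others of its group, 16 groups in all. Dixon's criterion, which by chance marks about 1 in 20 groups of normally distributed values, marked 2. Each group here held both sets of mice, so that rate need not hold. Cry1 in AIMD replicate 1 was at 28.8 FPKM, with 20.5 FPKM in the next mouse, a gap of 0.590 of the range of the group where 0.568 is critical. Cry2 in vehicle replicate 8 was at 5.46 FPKM, with 2.65 FPKM in the next mouse, a gap of 0.658 where 0.526 is critical.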

How the results depend on the processing

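Cry1 and Npas2 kept their direction and their call under all alternatives for scaling, pseudocount and filter, in limma voom, and when any 1 mouse was left out; at a threshold of 0.01 only Cry1 was called among the 8 genes, and 2481 genes in all. The number of the 8 genes called was 2 to 3 when 1 mouse was left out, while all calls ranged from 3551 to 4638. With the set as a factor limma called 4 genes (Arntl, Npas2, Per3 and Cry1) and, of the second loop and output factors, Tef as higher and Bhlhe40 as lower, but the sets were drawn on the levels of clock genes, so that fit supports no call. Replicate numbers showed no sign of pairing the mice, with same-number correlations from −0.35 to 0.43 and only AIMD replicate 7 correlating best with its own number. The labels do not state a pairing, and these correlations, which also hold the difference between the sets, cannot exclude it. A fit with the replicate block, which drops vehicle replicate 8, called 4 (Npas2, Per1 0.33, adjusted p = 0.0487, Cry1, and Cry2 0.50, adjusted p = 0.0209) and changed no other call among the 8. The sign of Per2 was not settled: −0.059 with the set as a factor, and −0.14 to 0.27 over the fits without 1 mouse, with a negative value without AIMD replicates 4 (−0.048), 6 (−0.030) or 7 (−0.044) and without vehicle replicates 1 (−0.099), 2 (−0.14), 3 (−0.044) or 4 (−0.060). Low depth limits Per1 and Per3 in the low set.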
